A study of Mus musculus with 9 samples.

Results

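The microglia genes described here are *Cx3cr1*, *P2ry12*, *Csf1r*, *Trem2*, *Tyrobp*, *C1qa*, *C1qb*, *C1qc*, *Aif1* and *Laptm5*, a set of 10 genes widely used to recognize microglia, and they were found by taking every probe outside the control spots whose gene name is one of them. They have 15 of the 39429 probes and are 10 of the 31093 gene names of the array. RNA came from the hippocampus of male C57BL/6J mice aged 9 months, from 3 animals each of the genotypes IF1-KO, IF1-TG and control (CRL), and was hybridized with 1 dye to Agilent mouse gene arrays, 1 mouse per array. The comparison of IF1-KO with CRL mice asks whether loss of ATPase inhibitory factor 1 (IF1), a mitochondrial inhibitor of the ATP synthase, goes with a different microglial transcript level, and the comparisons with IF1-TG mice ask the same of a gain of IF1. By the description of the mouse lines, IF1-KO mice lose an exon of the floxed *Atpif1* gene through a Cre recombinase under the *Camk2a* promoter, so mainly in excitatory forebrain neurons. IF1-TG mice carry a human IF1 transgene under a tetracycline operator and a transactivator driven by the same promoter. Neither manipulation is aimed at microglia. The label of the control animals gives no allele, and whether they carried Cre, the transactivator or neither was not given in the sources used here.

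Microglia are the resident macrophages of the brain parenchyma. They survey the tissue, respond to ATP and chemokines released by neurons, depend on signaling through the CSF1 receptor to survive, take up debris and synapses, and make much of the complement C1q found in brain. The products of the genes studied here serve these tasks: CX3CR1, P2RY12 and CSF1R are surface receptors, TREM2 is a receptor for lipids and lipoproteins that signals through the adaptor TYROBP (DAP12), C1QA, C1QB and C1QC are the chains of C1q, AIF1 (IBA1) is a calcium-binding protein that serves as the standard histological marker of the cells, and LAPTM5 is a membrane protein of lysosomes in cells of hematopoietic origin. In whole hippocampus, fewer microglia and less RNA per microglial cell cannot be told apart.

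All values below are log2 signals from which the 75th percentile of their array was subtracted, called levels, or differences between genotype means of these levels in a limma fit of all 9 arrays. A gene is given by its brightest probe unless another is named. *Atpif1*, the targeted gene, had levels of 6.44, 5.20 and 5.53 for the labels IF1-KO replicate 1, 2 and 3, against 6.19 to 6.34 for CRL and 6.39 to 6.51 for IF1-TG animals. The first of these, the array labelled IF1-KO replicate 1, thus showed no loss of the transcript. The differences of the microglia genes for IF1-KO mice, and those of other named genes whose call it changes, are therefore also given without it. The arrays were spread over 3 slides, of which slide 1 carried only IF1-TG animals (replicates 1 and 2), slide 2 all genotypes (1 IF1-KO, 2 CRL and 1 IF1-TG animal) and slide 3 no IF1-TG animal (2 IF1-KO and 1 CRL). The share of probes well above background was 66.7% to 69.5% on IF1-TG arrays and 71.0% to 74.9% on the others. Defining markers of the labelled tissue were present on all 9 arrays, with neuronal *Snap25* between 5.27 and 5.78 and microglial *Tmem119* between 0.75 and 1.11.

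All 15 probes of the microglia genes were well above background wherever their spot was used, and none was saturated. All belong to the 27993 probes that were kept because some genotype had them well above background on each of its 3 arrays, and these represent 21906 genes. The brightest *Cx3cr1* probe has no value on IF1-KO replicate 1, where its spot was marked as an outlier, so its IF1-KO mean rests on 2 arrays. Sequences are shown for the genes whose reading depends on the probe. The *Laptm5* probes, which gave the differences past the thresholds used below, lie on the forward strand of chromosome 4 of mm9 with 48 bases between them, from 130490785 to 130490844 for A_51_P401668 and from 130490893 to 130490952 for A_52_P13815. Their first 30 bases, as designed, are written 5′ to 3′.
A_51_P401668: aagagaatctggccaagcaatagttcctgg
A_52_P13815: agtgtacaaacaaaacaattccttcaaata
On the reverse strand of chromosome 9, the brightest *Cx3cr1* probe lies from 119957811 to 119957870 and A_55_P2054362 lies from 119957806 to 119957865. These probes share 55 of their 60 bases, shifted by 5. In their first 30 bases below, capitals mark what the other probe also holds.
A_55_P2007964: cgtgcCTAGAGTGTGTCTATCCCACTTGTA
A_55_P2054362: CTAGAGTGTGTCTATCCCACTTGTAATTCT
The *Tyrobp* probe has no position in the deposited annotation and is therefore given by its whole sequence.
A_51_P261517: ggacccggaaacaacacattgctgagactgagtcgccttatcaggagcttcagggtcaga
Whether a probe lies in coding or untranslated sequence was not looked up, since no transcript annotation of mm9 was used here.

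With all 9 arrays, *Laptm5* differed past the thresholds used here, being higher in IF1-TG relative to IF1-KO mice, and the other microglia genes passed them in no comparison. A gene was counted as differentially expressed at a fold change of at least 1.5 with an unadjusted P below 0.05, the thresholds of the study's methods. Between IF1-KO and CRL mice, 0 of the 10 genes passed in either direction, where 0.589% of all 21906 genes passed as higher and 0.434% as lower. Between IF1-TG and CRL mice, 0 of the 10 passed, with 2.07% of all genes higher and 2.24% lower. For IF1-TG against IF1-KO mice, *Laptm5* passed as higher and none as lower, with 1.69% of all genes higher and 2.02% lower. With the fold change left aside, limma gave an unadjusted P below 0.05 for 0, 0 and 2 of the 10 genes in these comparisons, the 2 being *Laptm5* and *Trem2*, both higher in IF1-TG relative to IF1-KO mice. The background of that count was 1.29% higher and 1.28% lower for IF1-KO against CRL, 4.2% and 3.87% for IF1-TG against CRL, and 3.72% and 3.19% for IF1-TG against IF1-KO. No microglia gene, and no gene at all by its brightest probe, had an adjusted P below 0.05 in limma with Benjamini-Hochberg adjustment. Over all kept probes of that fit, the smallest adjusted P was 0.121, 0.0164 and 0.0202 in these comparisons. Probes other than the brightest of their gene thus did fall below 0.05 in both comparisons with IF1-TG mice.

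**Figure D1:**
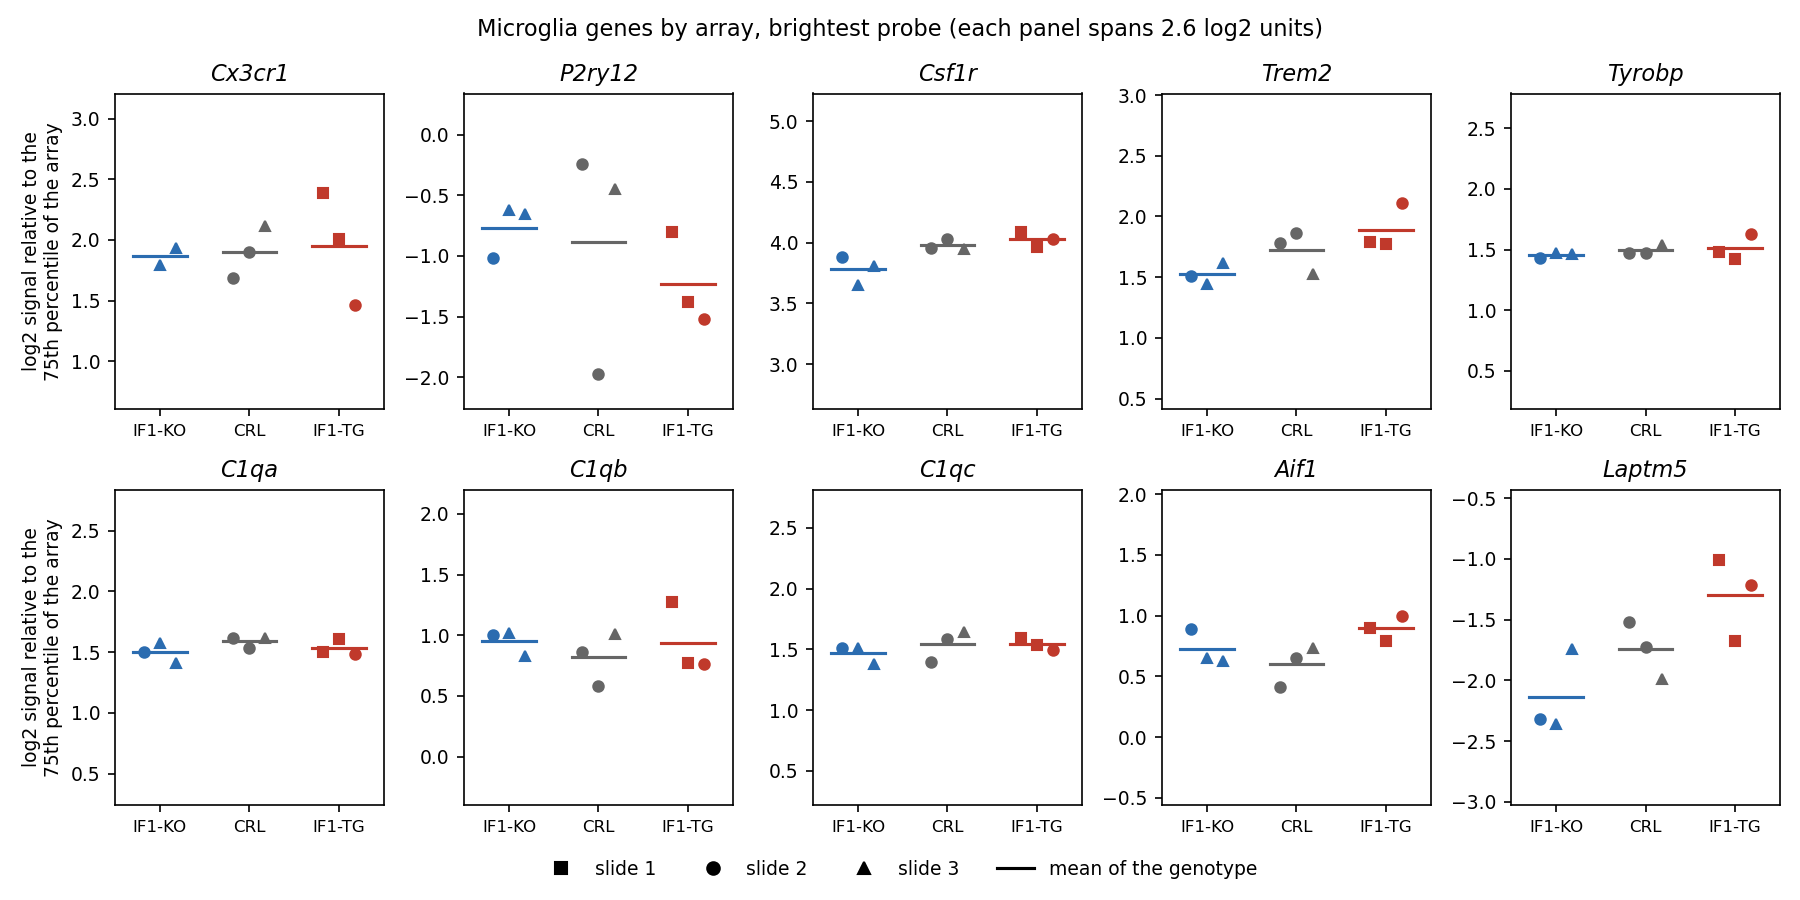
Level of each microglia gene (log2 signal of the brightest probe minus the 75th percentile of the array, y axis, each panel spanning the same number of log2 units) on each array by genotype (x axis); marker shape gives the slide and the line the genotype mean. *Tyrobp*, *C1qa* and *C1qc* lie close together on all arrays, *P2ry12* is spread by CRL replicate 2 at -1.97, and the *Laptm5* arrays of IF1-TG mice lie above those of IF1-KO mice.

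The median log2 difference of the 10 genes was -0.06 between IF1-KO and CRL mice, 0.05 between IF1-TG and CRL mice and 0.08 for IF1-TG against IF1-KO mice, beside -0.01, -0.0006 and 0.01 over all genes. In the same order, 3, 7 and 8 of the 10 genes had a difference above 0, as did 46.8%, 49.9% and 52.4% of all genes. The comparisons share their arrays, so these counts are not independent of each other. The arrays of IF1-KO and CRL mice did not overlap for *Csf1r*, which was lower (4.15% of all genes were lower without overlap and 3.82% higher). For IF1-TG against CRL mice this held for *Aif1*, which was higher (6.71% of all genes higher, 5.28% lower), and for IF1-TG against IF1-KO mice for *Csf1r*, *Laptm5* and *Trem2*, all higher (8.49% higher, 5% lower). On omitting IF1-KO replicate 1 (as labelled), none of the 10 genes passed between IF1-KO and CRL mice, *Laptm5* passed for IF1-TG against IF1-KO mice, and the medians were -0.07 and 0.09. For IF1-KO against CRL the differences were then -0.31 for *Laptm5*, -0.24 for *Csf1r*, -0.19 for *Trem2*, 0.24 for *P2ry12* and between -0.10 and 0.11 for the other 6. For IF1-TG against IF1-KO they were 0.75, 0.29, 0.36 and -0.59 in that order, 0.26 for *Aif1* and between 0.01 and 0.10 for the rest. *Csf1r* again had no overlap between IF1-KO and CRL arrays, and for IF1-TG against IF1-KO mice *Aif1* joined the genes without overlap as higher and *P2ry12* as lower, with 17% of all genes higher and 10.9% lower on these fewer arrays.

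**Figure D2:**
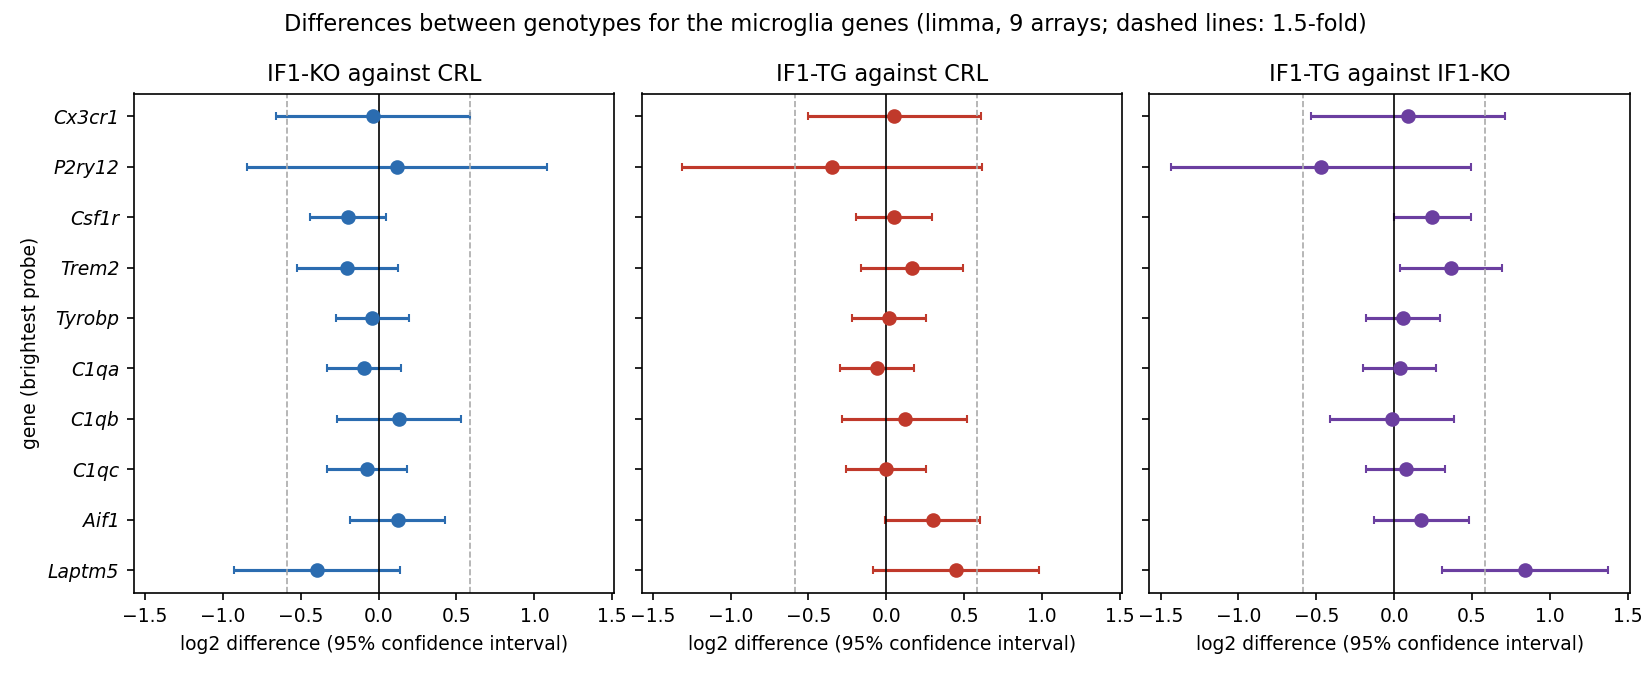
Log2 difference between genotypes (x axis) of each microglia gene (y axis, brightest probe) with its 95% confidence interval from limma over 9 arrays; dashed lines mark a fold change of 1.5. The interval of *Laptm5* for IF1-TG against IF1-KO mice runs from 0.31 to 1.37, that of *Trem2* from 0.04 to 0.69, and the intervals of *Tyrobp*, *C1qa* and *C1qc* stay within the dashed lines in every comparison.

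Among the receptors, *Csf1r*, the receptor for the growth factors CSF1 and IL-34, had levels of 3.88, 3.65 and 3.81 on the IF1-KO arrays, 3.95, 4.03 and 3.95 on the CRL arrays and 4.08, 3.96 and 4.03 on the IF1-TG arrays. The IF1-KO arrays were thus the lowest of the series, by a small margin. The log2 difference from CRL mice was -0.20 (95% confidence interval -0.44 to 0.05), and became -0.24 on omitting IF1-KO replicate 1 (as labelled), neither past the P threshold. That of IF1-TG from IF1-KO mice was 0.25 (-0.0002 to 0.49, adjusted P = 0.699), just short of the P threshold. On the same omission it was 0.29 and passed the P threshold but not that of fold, as 0.25 did in limma with the trend and robust options and with probes well above background on all 9 arrays. The other *Csf1r* probes, which lie 1268 and 12004 bases from the brightest, did not share this order, with differences of -0.11 and -0.08 for IF1-TG against IF1-KO mice and of -0.07 and 0.02 between IF1-KO and CRL mice. The ligands of the receptor differed little, with -0.05 to 0.02 for *Csf1* between the transgenic or knockout animals and CRL mice and 0.04 to 0.11 for *Il34*, and none passed the thresholds.

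*Cx3cr1*, the receptor for the neuronal chemokine fractalkine, had levels of 1.79 and 1.94 on IF1-KO replicates 2 and 3, of 1.69, 1.90 and 2.11 on the CRL arrays and of 2.39, 2.01 and 1.47 on the IF1-TG arrays. The transgenic animals held both the highest and the lowest value. Log2 differences were -0.04 (95% confidence interval -0.66 to 0.59) between IF1-KO and CRL mice, 0.05 (-0.50 to 0.61) between IF1-TG and CRL mice and 0.09 (-0.53 to 0.71) for IF1-TG against IF1-KO mice. The overlapping probe A_55_P2054362 gave a narrower spread, from 1.20 to 1.64 over all 9 arrays. It did not repeat the spread within IF1-TG mice, where it read 1.40, 1.31 and 1.49. The remaining probe, A_52_P99810, 1147 bases away, ranged from -0.30 to 0.79 with both ends in IF1-TG mice. None of these probes passed a threshold in any comparison. *Cx3cl1*, the gene of fractalkine, differed by 0.07 between IF1-KO and CRL mice and by 0.18 between IF1-TG and CRL mice, the latter without IF1-TG replicate 1, whose spot was an outlier. On omitting IF1-KO replicate 1 (as labelled), its difference of IF1-KO from CRL mice was 0.25 (standard error 0.16), not past the P threshold. The IF1-KO arrays then lay above all CRL arrays, as they did for 9.8% of all genes.

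*P2ry12*, the purinergic receptor that guides microglial processes toward released ADP, was the most variable gene of the set, with a standard deviation within genotypes of 0.60. Its levels were -1.01, -0.62 and -0.66 on the IF1-KO arrays, -0.24, -1.97 and -0.45 on the CRL arrays and -0.81, -1.38 and -1.52 on the IF1-TG arrays. CRL replicate 2 was the lowest array of the series and the other CRL arrays the highest. With all arrays, the log2 difference of IF1-TG from CRL mice was -0.35 (standard error 0.42, adjusted P = 0.849) and that of IF1-KO from CRL mice 0.12 (standard error 0.42). Without CRL replicate 2, the difference of IF1-TG from CRL mice was -0.89, past both thresholds, and that of IF1-KO from CRL mice became -0.42, which did not pass. CRL replicate 2 was also the highest array for the blood and the border macrophage lists described below, with mean centred levels of 1.97 and 0.71, and the part of these in its *P2ry12* level was not tested.

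*Trem2* had levels of 1.51, 1.44 and 1.62 on the IF1-KO arrays, 1.78, 1.86 and 1.53 on the CRL arrays and 1.79, 1.77 and 2.11 on the IF1-TG arrays. All IF1-TG arrays were above all IF1-KO arrays, and the CRL arrays reached into both. The log2 difference of IF1-TG from IF1-KO mice was 0.36 (standard error 0.14, adjusted P = 0.682), a 1.29-fold difference that passed the P threshold but not that of fold. It stayed at 0.36 on omitting IF1-KO replicate 1 (as labelled) and was 0.25 without IF1-TG replicate 3, the brightest array, 0.32 without IF1-KO replicate 2 and 0.22 with normexp background correction, in each case no longer past the P threshold. Its partner *Tyrobp* was the steadiest gene of the set, with levels of 1.43, 1.47 and 1.46 on the IF1-KO arrays, 1.47, 1.47 and 1.54 on the CRL arrays and 1.48, 1.43 and 1.63 on the IF1-TG arrays. The 95% confidence interval of its log2 difference was -0.28 to 0.20 between IF1-KO and CRL mice and -0.22 to 0.25 between IF1-TG and CRL mice, so a change by a factor of 1.5 lay outside both intervals. *Apoe*, whose product is a ligand of TREM2 and is made largely by astrocytes in the healthy brain, differed by -0.01 between IF1-KO and CRL mice and by 0.19 between IF1-TG and CRL mice (standard error 0.11 for both).

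The C1q genes lie side by side, their probes spanning 15.9 kb of chromosome 4 of mm9 from 136436578 to 136452468, and their products assemble into the recognition molecule that starts the classical complement cascade. *C1qa* had levels of 1.5, 1.58 and 1.41 on the IF1-KO arrays, 1.62, 1.53 and 1.62 on the CRL arrays and 1.5, 1.61 and 1.48 on the IF1-TG arrays. *C1qc* had levels of 1.51, 1.51 and 1.38, of 1.40, 1.58 and 1.65 and of 1.59, 1.54 and 1.49 in the same order. For both genes, every genotype overlapped with the others. *C1qb* was more spread, with levels of 1.00, 1.02 and 0.83 on the IF1-KO arrays, 0.86, 0.58 and 1.01 on the CRL arrays and 1.27, 0.77 and 0.76 on the IF1-TG arrays. Log2 differences of the 3 genes ranged from -0.09 to 0.13 between IF1-KO and CRL mice, from -0.06 to 0.12 between IF1-TG and CRL mice and from -0.01 to 0.07 for IF1-TG against IF1-KO mice, with the widest interval, that of *C1qb*, running from -0.27 to 0.53 in the first of these. The *C1qc* probe is printed 10 times on each array, which shows the error of a single spot: the standard deviation between its spots ranged from 0.036 to 0.351 over the arrays, the largest on CRL replicate 1. The other genes of the set are read from 1 spot per probe.

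*Aif1* had levels of 0.89, 0.65 and 0.63 on the IF1-KO arrays, 0.41, 0.65 and 0.73 on the CRL arrays and 0.90, 0.79 and 1.00 on the IF1-TG arrays. The IF1-TG arrays were above all CRL arrays, while the array labelled IF1-KO replicate 1 lay among them. The log2 difference of IF1-TG from CRL mice was 0.30 (95% confidence interval -0.01 to 0.60, adjusted P = 0.598), and it passed the P threshold, but not that of fold, without CRL replicate 3 (0.37) and with the trend and robust options. It was 0.21 without CRL replicate 1 and 0.12 with normexp background correction, neither past the P threshold. The difference of IF1-KO from CRL mice was 0.12 (-0.18 to 0.43), and 0.04 on omitting IF1-KO replicate 1 (as labelled).

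*Laptm5* had levels of -2.32, -2.36 and -1.74 on the IF1-KO arrays, -1.52, -1.72 and -1.99 on the CRL arrays and -1.01, -1.67 and -1.22 on the IF1-TG arrays. The lowest genotype mean was that of IF1-KO mice and the highest that of IF1-TG mice, and the IF1-KO and IF1-TG arrays did not overlap. The gene was 1.79-fold higher in IF1-TG relative to IF1-KO mice, with a log2 difference of 0.84 (standard error 0.23, adjusted P = 0.661). The differences from CRL mice did not pass, with a log2 difference of -0.40 for IF1-KO (95% confidence interval -0.93 to 0.14) and 0.45 for IF1-TG mice (-0.09 to 0.98). The dimmer probe A_52_P13815 gave the same order of means, with levels of -4.48, -4.63 and -3.77, of -4.12, -3.83 and -3.92 and of -3.07, -3.68 and -3.35. On it, *Laptm5* was higher in IF1-TG relative to IF1-KO mice by 0.93 (standard error 0.24) and higher than in CRL mice by 0.59 (standard error 0.24), both past the thresholds, while IF1-KO mice differed from CRL mice by -0.34, which did not pass. Both probes read the same RNA on the same arrays and are not separate evidence.

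**Figure D3:**
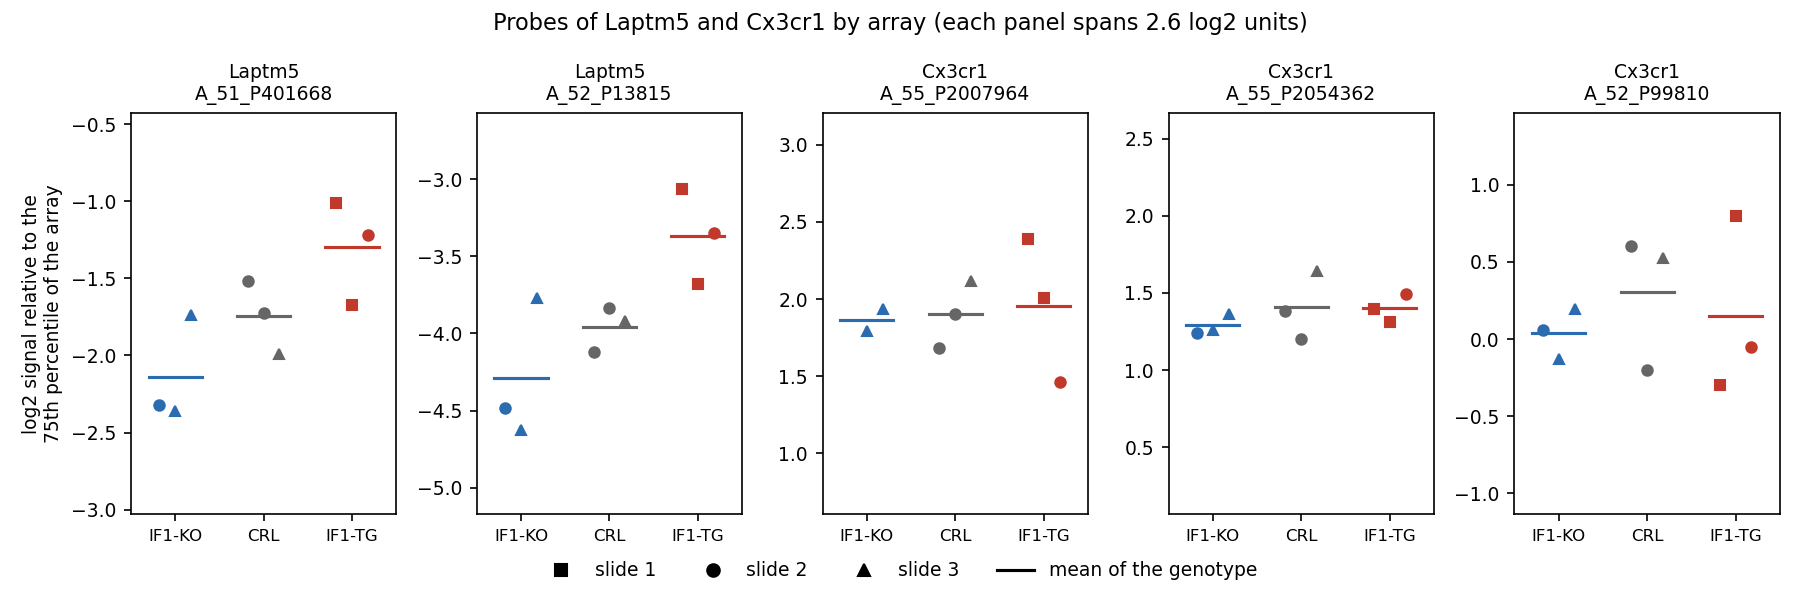
Level of each probe of *Laptm5* and *Cx3cr1* (log2 signal minus the 75th percentile of the array, y axis) on each array by genotype (x axis); marker shape gives the slide and the line the genotype mean. Both *Laptm5* probes order the genotype means IF1-KO, CRL, IF1-TG, whereas the *Cx3cr1* probe that ranges from 1.47 to 2.39 within IF1-TG mice is not followed by the probe that shares 55 of its bases.

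The difference in *Laptm5* of IF1-TG over IF1-KO mice was 0.75 on omitting IF1-KO replicate 1 (as labelled) and ranged from 0.70 to 1.04 as each array was left out, always past both thresholds. Slide 2, which holds 1 array of each of these genotypes, gave 1.10, but its IF1-KO array is replicate 1, the one with no loss of *Atpif1*. With slide as a fixed block the difference was 0.89 but no longer passed the P threshold. The CRL comparisons hung on single arrays, since IF1-KO mice differed from CRL mice by -0.60 without IF1-KO replicate 3, and IF1-TG from CRL mice by 0.63 without IF1-TG replicate 2, each past both thresholds. Within slides, IF1-KO and CRL mice differed by -0.70 on slide 2, where the IF1-KO side is that same array alone, and by -0.06 on slide 3, whose IF1-KO arrays both show the loss. The brightest IF1-KO and IF1-TG arrays for *Laptm5*, replicates 3 and 1, were also those with the most choroid plexus RNA in their genotype (below). With these arrays and CRL replicate 2 left out, a choice made after seeing the data, the difference for IF1-TG against IF1-KO mice was 0.90 and passed. The *Laptm5* probes lie 1.60 Mb from the *Atpif1* probe and the C1q probes 4.35 to 4.37 Mb from it, all on chromosome 4. Since the floxed line is named as one of the C57BL/6N substrain, linked sequence of that origin and the allele itself cannot be told apart here.

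Of the other genes of homeostatic microglia, 19 of 20 were kept, and their log2 differences went both ways, from -0.57 to 0.62 between IF1-KO and CRL mice, where 8 of the 19 were above 0. With all arrays, none passed the thresholds between IF1-KO and CRL mice or for IF1-TG against IF1-KO mice, and *Sall1*, a transcription factor of microglial identity, passed as lower in IF1-TG than in CRL mice, by -0.63 (standard error 0.27, adjusted P = 0.584). Its levels overlapped, with -3.28, -2.14 and -2.56 on the IF1-TG arrays against -1.83, -1.98 and -2.27 on the CRL arrays. The *Sall1* difference of IF1-KO from CRL mice was -0.39 (standard error 0.27), which did not pass. The median log2 difference of the 19 genes was -0.02, -0.01 and 0.07 for IF1-KO against CRL, IF1-TG against CRL and IF1-TG against IF1-KO. For 6 of these 19 genes the IF1-KO arrays lay below all CRL arrays, which held for 4.15% of all genes, and for 7 of 19 on omitting IF1-KO replicate 1 (as labelled), where fewer arrays raise the share of all genes to 11.6%. Among them were *Ctss*, *P2ry13*, *Gpr34*, *Cd33* and *Tmem119*, of which all but the last were picked for naming with their values known. *Ctss*, the gene of the lysosomal protease cathepsin S, had levels of 2.29, 1.85 and 2.15 on the IF1-KO arrays against 2.66, 2.85 and 2.49 on the CRL arrays. Its difference of -0.57 (standard error 0.15) passed the P threshold and fell just short of that of fold. On that omission it was -0.66 (standard error 0.17), past both, as was its difference of 0.66 for IF1-TG against IF1-KO mice, while 1.77% and 5.01% of all genes passed in these comparisons. *P2ry13*, another purinergic receptor of microglia, differed by -0.41 (standard error 0.14) and *Gpr34*, a lysophospholipid receptor, by -0.34 (standard error 0.15), both past the P threshold alone. They were -0.52 and -0.39 on that omission, where *Gpr34* no longer passed it. *Tmem119*, much used as a marker of microglia against other macrophages, differed by -0.15 (standard error 0.11) and *Cd33* by -0.26 (standard error 0.12), neither past it. In the other direction, *Slc2a5*, a fructose transporter gene likewise picked with its values known, had the highest difference of the list, 0.62 (standard error 0.34), which did not pass the P threshold.

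In the broader myeloid list, with 22 of 23 genes kept, none passed the thresholds in any comparison with all arrays, and the median log2 difference was -0.14 between IF1-KO and CRL mice, -0.05 between IF1-TG and CRL mice and 0.10 for IF1-TG against IF1-KO mice, with 4, 6 and 13 of the 22 genes above 0. On omitting IF1-KO replicate 1 (as labelled), the median for IF1-KO against CRL was -0.20 with 2 of 22 above 0 and 5 lower without overlap (22.7%, beside 11.6% of all genes), and that for IF1-TG against IF1-KO was 0.14 with 14 above 0. *Ptprc* (CD45) had levels of -2.96, -2.95 and -3.09 on the CRL arrays, and its difference of IF1-TG from CRL mice was -0.36 (95% confidence interval -0.66 to -0.06), below the fold threshold, in the direction opposite to *Laptm5*. On omitting IF1-KO replicate 1 (as labelled), *Lyn*, a Src family kinase, passed as lower in IF1-KO than in CRL mice by -0.68 (standard error 0.22) and as higher by 0.66 for IF1-TG against IF1-KO mice; it is named for this, with its values known. *Itgam* (CD11b) and *Cd68* had differences from CRL mice between -0.18 and 0.17. The 27 kept genes that rise in reactive or lipid-laden microglia had a median difference of -0.01 between IF1-KO and CRL mice with 13 above 0, and of -0.16 with 5 above 0 on omitting IF1-KO replicate 1 (as labelled), which had the highest mean centred level of this list, 0.34. Of these genes, *Tnf* passed as lower in IF1-TG than in CRL mice, and on omitting IF1-KO replicate 1 (as labelled) also as lower than in IF1-KO mice. However, *Tnf* was not well above background on any IF1-TG or IF1-KO array and no fold is given. Of 19 kept ligands and signaling partners, *Pik3cg*, a phosphoinositide kinase subunit of leukocytes, passed as higher in IF1-TG relative to IF1-KO mice by 0.60 (standard error 0.26, adjusted P = 0.699), while its dimmer probe differed by 0.13 (standard error 0.36). On omitting IF1-KO replicate 1 (as labelled), the brighter probe differed by 0.65 but no longer passed the P threshold.

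Complement genes beyond C1q, 16 of 21 of which were kept, had median differences of -0.05, -0.06 and -0.04 for IF1-KO against CRL, IF1-TG against CRL and IF1-TG against IF1-KO, with 6, 6 and 8 of the 16 above 0. Here too IF1-KO replicate 1 was highest, at a mean centred level of 0.38, and on omitting it the median for IF1-KO against CRL was -0.17, with 4 of 16 above 0 and 4 lower without overlap (11.6% of all genes), and that for IF1-TG against IF1-KO was 0.03. *C4b*, a complement component that acts after C1q, rose in IF1-TG over CRL mice by 0.71 (standard error 0.23, adjusted P = 0.509), with 2.25, 2.80 and 2.85 on the IF1-TG arrays against 1.83, 1.75 and 2.17 on the CRL arrays. *C1ra*, a protease that joins C1q in the C1 complex, was lower in IF1-TG mice by -0.79 than in CRL and by -1.05 than in IF1-KO mice (standard error 0.27 for both, adjusted P = 0.529 and adjusted P = 0.661). Its dimmer probe did not share this order, with 0.34 and -0.66 (standard error 0.44 for both, neither past the thresholds), and on that probe IF1-KO mice were above CRL mice by 1.00, past both. On omitting IF1-KO replicate 1 (as labelled) that difference was 0.93 and did not pass the P threshold.

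Markers of other cell types were measured on the same arrays. Of 14 border macrophage and blood leukocyte genes kept out of 19, none passed in any comparison, and their mean centred level ranged from -0.16 to 0.31 on IF1-KO, from -0.31 to 0.71 on CRL and from -0.48 to 0.04 on IF1-TG arrays. The 0.31 is that of IF1-KO replicate 1, the array with no loss of *Atpif1*, and on omitting it the median difference of the list went from -0.06 to -0.20 for IF1-KO against CRL and changed sign, from -0.15 to 0.14, for IF1-TG against IF1-KO. *Mrc1*, the defining marker of border macrophages, lay between -5.18 and -2.80, and *Ccr2*, of blood monocytes, was not kept. The 10 choroid plexus genes, all kept, varied most of all lists between arrays, from -1.93 to 1.73 on IF1-KO, from -1.25 to 2.06 on CRL and from -1.31 to 3.09 on IF1-TG arrays, with IF1-KO replicate 3, CRL replicate 2 and IF1-TG replicate 1 high. The transthyretin gene *Ttr* ranged from 0.25 to 7.28. None of these 10 genes passed in any comparison. Their median differences were -0.50 for IF1-KO against CRL, 0.36 for IF1-TG against CRL and 0.87 for IF1-TG against IF1-KO, the directions of *Laptm5*. All 14 oligodendrocyte genes were kept, with median differences of -0.31 between IF1-KO and CRL mice and 0.30 for IF1-TG against IF1-KO mice. In these comparisons 2 and 11 of the 14 genes were above 0. The defining marker *Mbp* went the other way, by 0.05 and -0.13 (standard error 0.17 for both). For IF1-TG against IF1-KO mice *Ermn* and *Mal*, both genes of myelinating cells, passed as higher, by 0.96 (standard error 0.29) and 0.59 (standard error 0.20), though a dimmer *Ermn* probe differed by 0.11 (standard error 0.30). On omitting IF1-KO replicate 1 (as labelled), the oligodendrocyte medians were -0.38 and 0.43, and *Mal* (-0.60) and the dimmer *Ermn* probe (-0.73) also passed as lower in IF1-KO than in CRL mice. The direction of the oligodendrocyte medians was that of *Laptm5*, and its part in the *Laptm5* difference was not tested. None of the 12 astrocyte, 13 endothelial and mural or 13 neuronal genes passed with all arrays, and on that omission the astrocyte water channel gene *Aqp4* passed as higher for IF1-TG against IF1-KO mice (0.60). Like *Lyn*, *Aqp4* is named with its values known. In the blood list, the globin gene *Hbb-b1* ranged from -2.93 to 2.19 and did not pass.

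**Figure D4:**
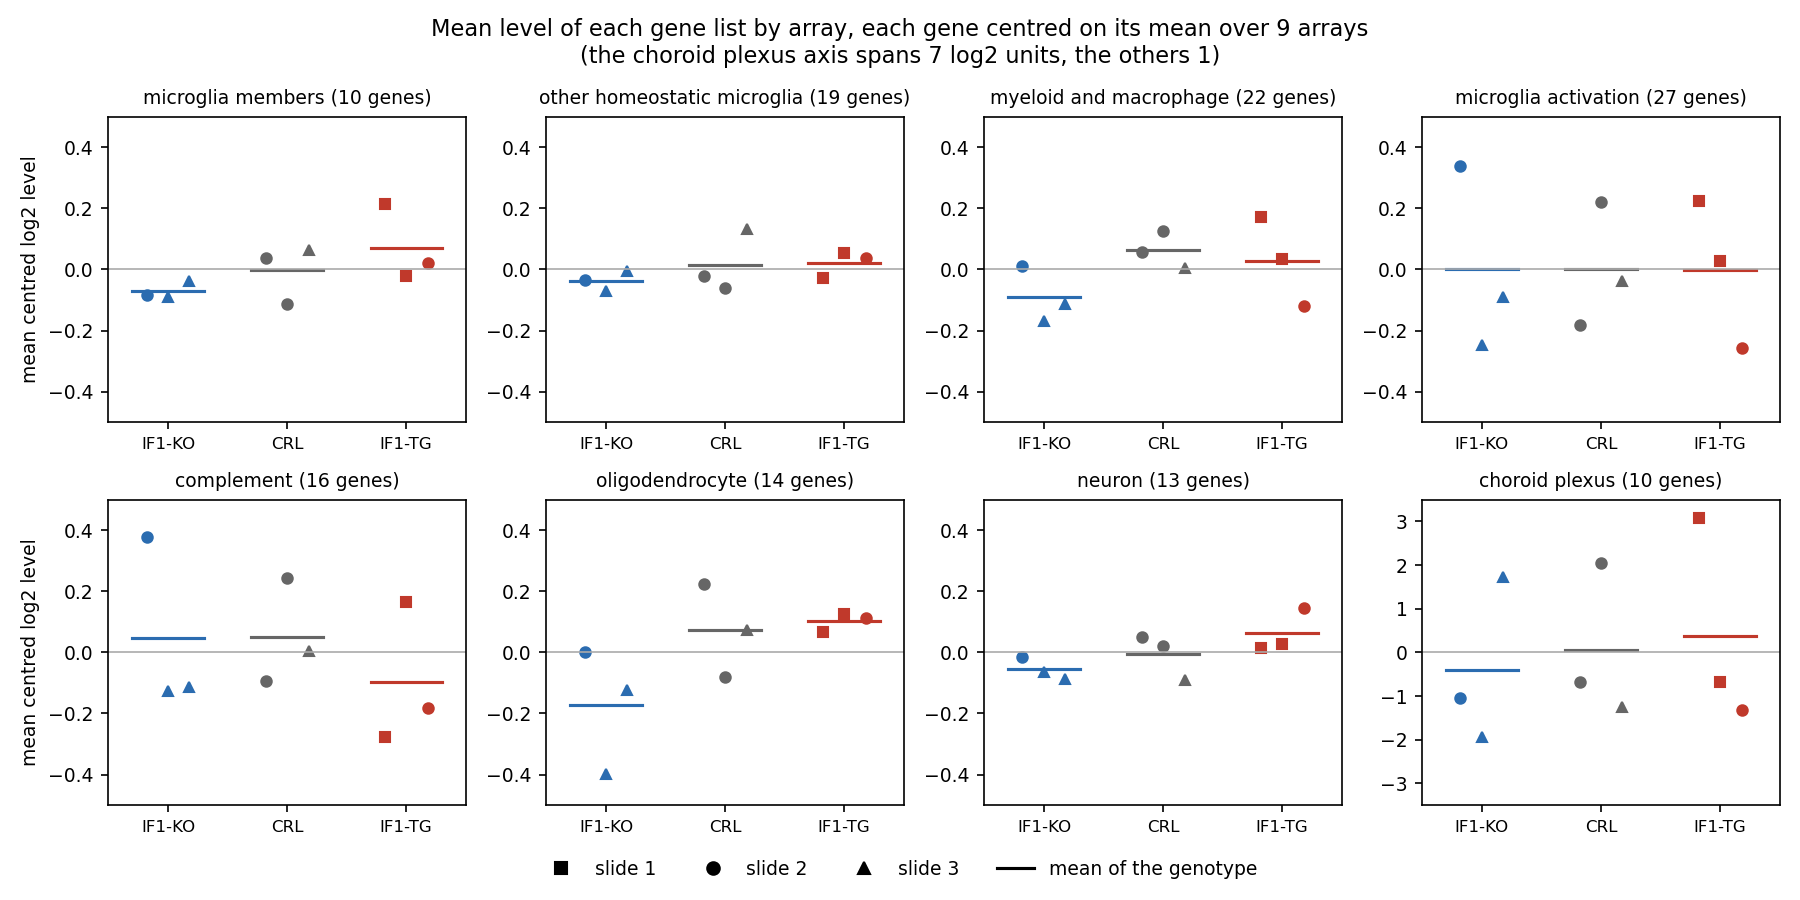
Mean level of each gene list (y axis, log2, each gene centred on its mean over the 9 arrays) on each array by genotype (x axis); marker shape gives the slide and the line the genotype mean. The microglia genes lie between -0.11 and 0.21 on all arrays. Their CRL arrays overlap with both other genotypes, while all IF1-KO arrays lie below all IF1-TG arrays by a small margin. The choroid plexus genes, on a wider axis, reach 3.09 on IF1-TG replicate 1.

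Averaged over the 10 genes after centring each on its mean over the arrays, the level was -0.08, -0.09 and -0.04 on the IF1-KO arrays, 0.04, -0.11 and 0.06 on the CRL arrays and 0.21, -0.02 and 0.02 on the IF1-TG arrays. The value of IF1-KO replicate 1, -0.08, is a mean of 9 genes, since *Cx3cr1* has no value there. IF1-TG replicate 1 was the highest and CRL replicate 2 the lowest array. The IF1-KO arrays lay within the range of the CRL arrays, and all of them lay below all IF1-TG arrays, by a small margin. The genes did not move together across animals: of 45 pairs, 27 had a Pearson correlation above 0 over the 9 arrays, with a median of 0.13 and a range from -0.58 to 0.81. Once genotype means were removed, 26 pairs were above 0 with a median of 0.03. The closest pairs were *Laptm5* with *Trem2* at 0.81, *Csf1r* with *Laptm5* at 0.78 and *Csf1r* with *Trem2* at 0.74, the genes without overlap of the IF1-KO with the IF1-TG arrays. These arrays share genotype and slide, so the correlations are descriptions. The spread within genotypes was 0.07 for *Tyrobp* and *C1qa*, 0.08 for *Csf1r*, 0.09 for *C1qc*, 0.14 for *Aif1*, 0.16 for *Trem2*, 0.22 for *C1qb*, 0.30 for *Cx3cr1*, 0.31 for *Laptm5* and 0.60 for *P2ry12*, as standard deviations of log2 levels. For 7 of the 10 it was below 0.24, the median over all 21906 genes.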

How the data were processed

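The authors deposited 1 table of spot intensities per array, made with Agilent Feature Extraction 10.7.3.1, which subtracts a fitted background and evens out spatial trends array by array and leaves the arrays unscaled to each other. Mean spot and local background intensities, also deposited, served for an alternative. Genotypes and ages are those of the labels. From the log2 of each processed intensity, the 75th percentile over non-control spots of its array was subtracted, a step that sets every array to a common scale. Outlier spots were left out, spots of a probe averaged, and a probe kept if all 3 arrays of some genotype showed it well above background. All 9 arrays entered 1 fit by genotype with limma 3.58.1 (lmFit, eBayes) under R 4.3.3, with Benjamini-Hochberg adjustment over all kept probes. The precision is limited by the number of arrays, 3 per genotype. The labels call each array a separate mouse.

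The microglia genes, the 12 other lists (199 genes, 185 kept) and the tests were chosen with earlier results of these data known. Named from the other lists were genes past both thresholds, defining markers of cell types, and ligands of the receptors; further genes are stated to have been named after their values were seen. A few results for single genes are not reported here. Likeness was the Pearson correlation over the arrays with the mean centred level of the microglia genes. The alternatives were normexp (offset 50) with quantile normalization, quantile normalization, no filter or one for all 9 arrays, slide or replicate number as a block, values within slides, a fit of the compared genotypes alone, trend and robust options of eBayes, other ways to join probes, each array left out, and, chosen after seeing the data, 3 arrays high in choroid plexus genes left out. The limma step alone was tested on simulated data, for IF1-TG against CRL, with independent noise and no slide effect. No camera, fry or other set test was run.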

Additional observations from a re-analysis of the deposited data

How the results depend on the processing

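*Laptm5* was higher in IF1-TG relative to IF1-KO mice under every alternative run, by 0.64 to 1.10 on the log2 scale, and passed the thresholds under all with a test except slide as a fixed block, where 0 microglia genes passed and 1 had an unadjusted P below 0.05. Leaving out the 3 arrays high in choroid plexus genes gave 2 genes past the thresholds in that comparison, *Laptm5* and *P2ry12* (-0.63), and 1 in IF1-TG against CRL mice, *P2ry12* (-1.10), which was also the 1 gene with P below 0.05 there. In IF1-TG against CRL mice, 1 gene passed when any probe of a gene counted (*Laptm5*), and 1 had P below 0.05 with any probe, with the mean of probes and with eBayes trend and robust options. In IF1-TG against IF1-KO mice, normexp left 1 gene with P below 0.05, while the trend and robust options and the filter on all 9 arrays each gave 3, *Laptm5*, *Trem2* and *Csf1r*. With each array left out in turn, 0 to 1 microglia genes passed in IF1-KO against CRL mice, with 0 to 1 at P below 0.05, and likewise 0 to 1 and 0 to 1 in IF1-TG against CRL mice, while 1 passed throughout and 1 to 2 had P below 0.05 in IF1-TG against IF1-KO mice. The share of all genes passing in IF1-KO against CRL mice was itself between 0.714% and 3.93% in these fits. The median difference of the microglia genes moved by less than the spread between replicates, 0.09, under all alternatives. That spread is larger than the medians themselves, so this rule cannot show that their size or sign is stable. The median ranged from -0.11 to -0.02 for IF1-KO against CRL mice. It ranged from -0.004 to 0.07 for IF1-TG against CRL and from 0.04 to 0.12 for IF1-TG against IF1-KO mice.

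The replicate numbers do not pair the animals: deviations of same-numbered arrays correlated between -0.166 and 0.117. With the replicate block, 1 microglia gene, *Laptm5*, had P below 0.05 in IF1-TG against IF1-KO mice and *Cx3cr1* differed by 0.018 between IF1-KO and CRL mice.

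Small differences changed sign. Within slides, where each side is 1 or 2 arrays, *Aif1* was -0.0946, *C1qb* -0.0831, *P2ry12* -0.194 and *Trem2* 0.00369 for IF1-KO against CRL on slide 3. On slide 2, *C1qc* was 0.0211 in that comparison. For IF1-TG against CRL on slide 2, *C1qc* was 0.00177 and *Cx3cr1* -0.33, and for IF1-TG against IF1-KO *C1qa* was -0.0159 and *C1qc* -0.0194. Further changes came with other alternatives. For IF1-KO against CRL, *Cx3cr1* was 0.187 with normexp and -0.144 to 0.0701 with an array left out, and *P2ry12* was -0.0517 with slide as a fixed block, -0.422 to 0.443 with an array left out and -0.476 without the 3 arrays high in choroid plexus genes. For IF1-TG against CRL, *C1qa* was 0.0108 with normexp; *C1qc* 0.00981 with quantile normalization and -0.0732 to 0.0503 with an array left out; *C1qb* -0.0213 with slide as a fixed block, -0.0504 to 0.212 with an array left out and -0.167 without the 3 arrays; *Csf1r* -0.0645 with the mean of its probes; *Tyrobp* -0.0421 to 0.0592 with an array left out. *Cx3cr1* was -0.00748 with the filter on all 9 arrays, -0.33 with slide as a fixed block, -0.0388 with the mean of its probes, -0.166 to 0.295 with an array left out and -0.165 without the 3 arrays. For IF1-TG against IF1-KO, *Aif1* was -0.000355 with normexp, *Cx3cr1* -0.124 with normexp, -0.0801 with slide as a fixed block, -0.129 to 0.332 with an array left out and -0.0581 without the 3 arrays, and with an array left out *C1qa* was -0.00769 to 0.0746, *C1qb* -0.181 to 0.0731 and *Tyrobp* -0.00256 to 0.0988. The cause was not tested.

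With 3 arrays a genotype, on slides that hold the genotypes unequally, no value separates slide from genotype for IF1-TG replicates 1 and 2. Signals dimmer than the background limit, such as that of *Tnf*, give no fold.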

Other observations

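Among 21650 other genes, those whose levels over the 9 arrays were most like the mean of the microglia genes were *Dhrs7b* (Pearson r = 0.947), *Ryr1* (0.928), *Filip1* (0.921), *Gjc3* (0.916) and *Crabp1* (0.915). *Gjc3*, a connexin gene of myelinating glia, is in the oligodendrocyte list. These are descriptions over 9 arrays that share genotype and slide, picked as the highest of many, and none belongs to the lists of microglia, myeloid or activation genes.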
